A study of Homo sapiens with 12 samples.

Results

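The immediate early response genes IER2, IER3, IER5 and IER5L and the gene CSRNP1 were followed through 30 min of serum in cells treated to deplete KAP1 and in their solvent controls. They were taken by symbol, and the 5 genes are 5 of 19901 protein-coding genes in the count table. All 5 had at least 10 counts in at least 6 libraries and were among the 13093 genes tested. The cells were HCT116, derived from a human colorectal carcinoma. In every group a degradation tag is fused to their KAP1, which TRIM28 encodes, and all libraries came from 1 clone (KAP1_dTAG_CloneD5). Every culture was without serum for 48 h, and received DMSO (the solvent) or dTAG (the small molecule that sends the tagged protein for degradation) for the final 8 h. The 4 groups of 3 libraries were DMSO-S0 and dTAG-S0, to which no serum was given, and DMSO-S30 and dTAG-S30, to which serum was given for 30 min. In bulk RNA a lower level may be fewer cells of a type or less RNA per cell, which cannot be told apart. The labels number the libraries as replicates, and the study's methods call them biological replicates without saying what separated them, so p-values measure the spread between these libraries.

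Immediate early genes (IEGs) are switched on by growth factors without the need for new protein, through kinases that act on factors already bound to DNA, such as serum response factor and its partners. IER2, IER5 and IER5L encode related nuclear proteins that share a conserved N-terminal region, and IER5 is known to bind the phosphatase PP2A and to activate the heat shock factor HSF1. IER3 (also called IEX-1) has the family name but an unrelated sequence, and is known for its roles in cell survival and ERK signalling. CSRNP1 (also called AXUD1) encodes a cysteine- and serine-rich nuclear protein first found as a gene induced by AXIN1.

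Library totals were 20537682 to 26278707 counts, and ERCC spike-ins, the synthetic transcripts added to each sample, took 7.97% to 9.37% of them. The level of TRIM28 transcript was 85.5 to 100.2 normalised CPM (counts scaled to library size) over the 6 libraries without serum and 103 to 120.4 over the 6 with serum, and the tag acts on the protein, so these values do not measure KAP1 loss. The epithelial markers EPCAM, CDH1, KRT8, KRT18 and KRT19 were each at 79.1 CPM or more in every library, while VIL1 was at most 7 counts. Of 8 markers of fibroblast, immune and endothelial cells, 7 were at most 55 counts, and the fibroblast markers COL3A1 and DCN were at most 7 and 2. COL1A1 moved with serum, so that the summed level of the 8 was 14.95 to 18.66 CPM without serum and 68.6 to 88.3 CPM with serum, and its part in the results below was not tested.

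The members differ in structure, which sets how much unspliced RNA can enter a count over the whole gene. IER5 (ENSG00000162783.10, hg38 chromosome 1, 181088712 to 181092899, plus strand) and IER5L (ENSG00000188483.7, chromosome 9, 129175552 to 129178262, minus strand) have a single exon in GENCODE v44. IER3 (ENSG00000137331.11, chromosome 6, 30743199 to 30744554, minus strand) has 2 exons, which fill 91.7% of its span. IER2 (ENSG00000160888.6, chromosome 19, 13150415 to 13154908, plus strand) has 2 exons in its canonical transcript, which fill 46.9% of the span, with an intron of 2391 bp before the coding sequence. CSRNP1 (ENSG00000144655.14, chromosome 3, 39141855 to 39154562, minus strand) has 5 exons that fill 27.0%, and 8573 bp of intron. No other gene in the count table overlaps any of the 5. GENCODE v44 places models on the other strand over IER2, IER3, IER5L and CSRNP1, of which the protein-coding model ENSG00000235007 covers 100% of IER5L, IER5L-AS1 covers 90.6% of it and HCG20 covers 56.4% of IER3. Whether the counting used strand is not given in the sources used here, so counts of these 4 genes may hold antisense reads.

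**Figure D1:**
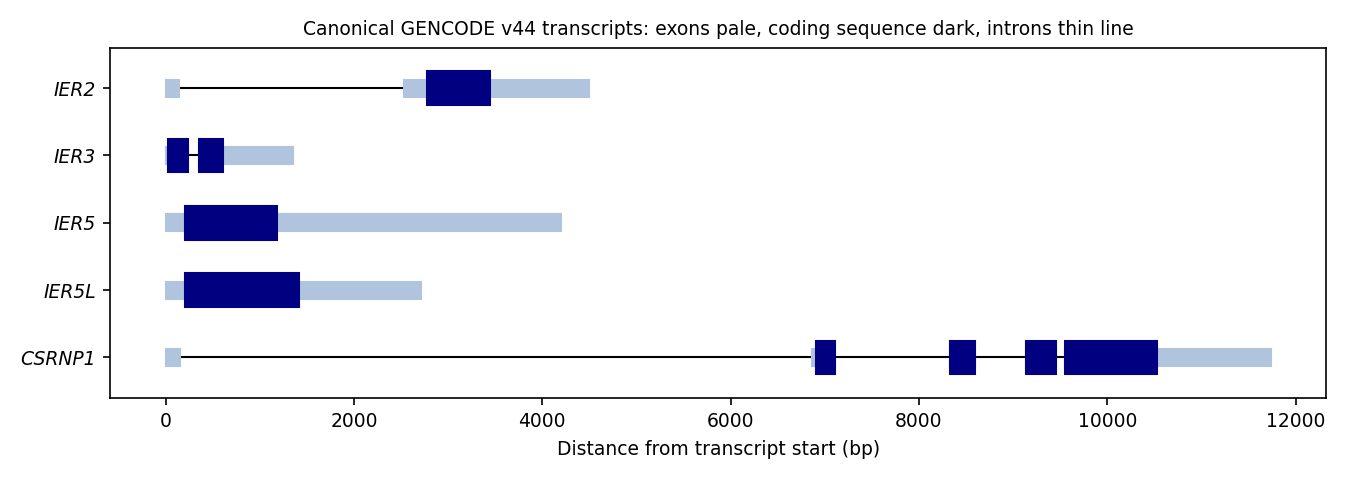
Exons (pale), coding sequence (dark) and introns (thin line) of the canonical transcript of each gene, by distance from the transcript start in bp. IER5 and IER5L have no intron, and CSRNP1 has the longest intronic part, 8573 bp.

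Promoter sequences were available for 4 of the 5 genes, IER2, IER5, IER5L and CSRNP1, in windows of 250 bases before to 50 after each RefSeq start (GRCh38.p14). Whether motifs have a part in the size of the serum responses was not tested. The windows of IER5 and IER5L share an arrangement of motifs. Both carry a heat shock element core (GAANNTTC), which 6.77% of 35116 promoter windows hold, at positions -226 and -212 relative to the start. Both also carry 2 CCAAT boxes in the reverse orientation (ATTGG), and in both the boxes are 64 bases apart. CCAAT was present in 34.6% of all windows, 2 or more were present in 10.8%, and 2 in 1 orientation at this spacing in 0.114%. IER5 and IER5L were 2 of the 4 windows that held this pair together with the heat shock element core. Windows of different genes were counted separately and not checked for overlap, so these 4 may not be separate stretches of DNA. The spacing was noticed in these windows first and counted in all windows afterwards. The 250 bases before the start are printed 5′ to 3′ on the gene's strand, with matches to the motifs named here and below in capitals, GC boxes (GGGCGG) excepted.
IER5 (chr1:181088450-181088699, plus strand): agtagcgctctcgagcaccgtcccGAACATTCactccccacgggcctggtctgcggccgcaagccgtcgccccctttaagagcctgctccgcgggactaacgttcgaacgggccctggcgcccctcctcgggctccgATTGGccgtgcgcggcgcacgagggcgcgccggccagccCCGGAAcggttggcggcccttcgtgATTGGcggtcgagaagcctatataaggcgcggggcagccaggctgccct
IER5L (chr9:129178262-129178511, minus strand): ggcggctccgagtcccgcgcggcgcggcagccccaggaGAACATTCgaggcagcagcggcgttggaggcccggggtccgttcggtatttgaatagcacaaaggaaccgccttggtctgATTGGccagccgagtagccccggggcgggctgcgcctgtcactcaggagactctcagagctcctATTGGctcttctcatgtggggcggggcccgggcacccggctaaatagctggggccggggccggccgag

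The windows of IER2 and CSRNP1, which had larger serum responses, held neither of these motifs and are shown for comparison. IER3, which also rose more than IER5 and IER5L, has no window here. IER2 held an ETS core (CCGGAA, in 17.2% of all windows) at -26 to -21 on the other strand, the motif of the ELK factors that partner serum response factor. It also held 1 match to TGACG, the short form of the cyclic AMP response element (24.6% of all windows). CSRNP1 has RefSeq starts at 39154641 and 39153591 of chromosome 3. The window of the upstream start held no match, and that of the downstream start held 2 matches to TGACG and 7 GC boxes. GC boxes, which 45.0% of all windows hold, also numbered 4 in IER2, 2 in IER5L and 0 in IER5. Each motif was searched on both strands, and TGACG also lies within the full element.
IER2 (chr19:13150161-13150410, plus strand): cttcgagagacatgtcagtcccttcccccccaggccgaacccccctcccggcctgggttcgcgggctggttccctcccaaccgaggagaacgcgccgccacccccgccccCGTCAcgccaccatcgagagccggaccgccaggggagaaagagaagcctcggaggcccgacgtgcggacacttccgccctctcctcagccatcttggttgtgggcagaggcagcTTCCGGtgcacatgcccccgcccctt
CSRNP1 (chr3:39153592-39153841, minus strand): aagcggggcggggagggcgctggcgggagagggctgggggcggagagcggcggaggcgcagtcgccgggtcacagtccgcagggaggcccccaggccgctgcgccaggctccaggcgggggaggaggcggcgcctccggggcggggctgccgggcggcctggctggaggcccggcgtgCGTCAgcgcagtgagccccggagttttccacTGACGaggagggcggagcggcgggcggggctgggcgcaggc
The full cyclic AMP response element (TGACGTCA) and the exact TATA box string TATAAA matched none of these windows, against 1.85% and 11.5% of all windows. The AP-1 site (TGANTCA), the NF-kappaB site and the CArG box bound by serum response factor also matched none, against 7.71%, 0.558% and 1.29%. Variants of the TATA box were not searched, and the IER5 sequence printed above holds one, TATATAAG. IER5 also held 1 ETS core, at -74 to -69.

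**Figure D2:**
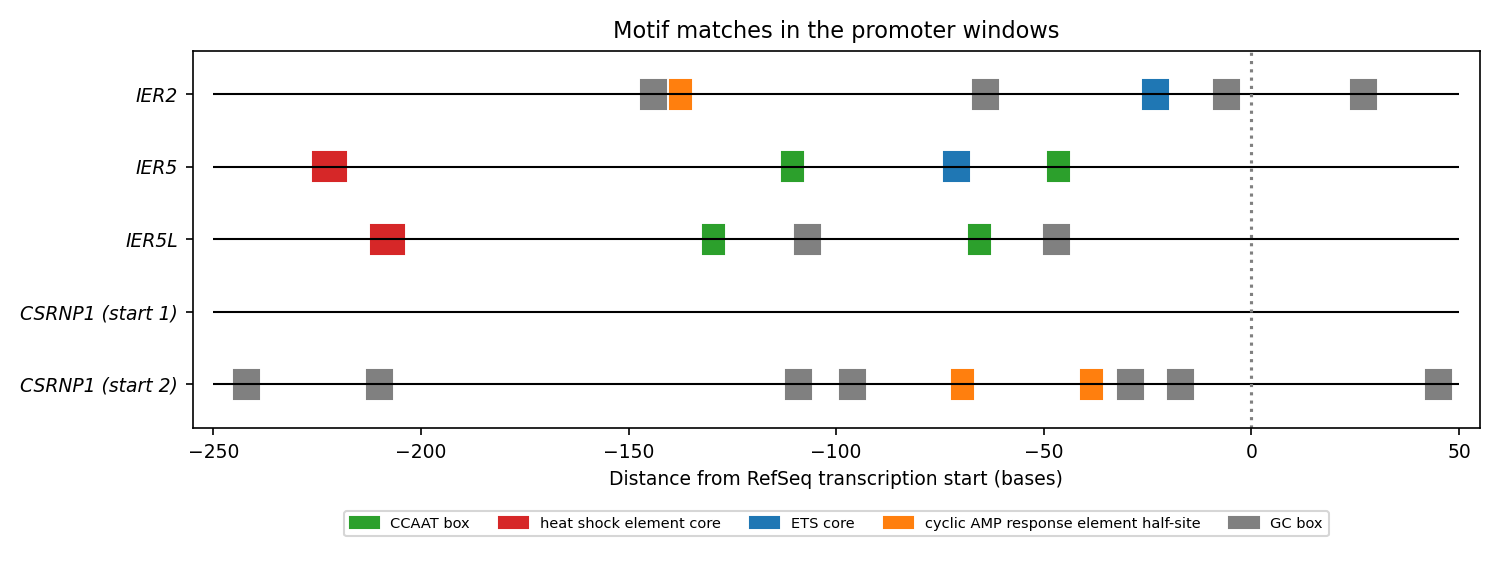
Positions of motif matches in each promoter window, in bases from the RefSeq transcription start (dotted line); each box is 1 match on either strand. IER5 and IER5L each show a heat shock element core and 2 CCAAT boxes 64 bases apart, and CSRNP1 shows 7 GC boxes at its downstream start and no match at its upstream start.

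Setting DMSO-S30 against DMSO-S0 showed how far each member responds to serum when KAP1 is present. All 5 members rose, where 9.15% of the genes tested were called higher (edgeR quasi-likelihood test, adjusted p under 0.05), and in each the 3 libraries with serum lay above the 3 without, which held for 13.8% of the genes tested. The rises ran from 1.17-fold for IER5 to 16.1-fold for CSRNP1. Of these, 3 passed 2-fold, as did 2.18% of the genes tested, so that by the thresholds of the study IER3 is a 2-fold IEG, IER2 a 4-fold IEG and CSRNP1 a 16-fold IEG, while IER5 and IER5L are in no IEG cluster. CSRNP1 lay at the 16-fold threshold (95% interval 14.5 to 17.9-fold, with 28 genes at or above it), and its log2 fold change was under 4 without a RUV factor, the term for unwanted variation estimated from the spike-ins (3.976), with only the libraries compared (3.977) and without DMSO-S0 replicate 2 (3.973).

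CSRNP1 had the largest rise of the 5. Its level in the DMSO-S0 libraries was 9.01, 8.07 and 8.19 CPM (167 to 176 counts), and in the DMSO-S30 libraries 131.5, 132.2 and 133.6 CPM (2680 to 3001 counts). The groups were far apart. The coefficient of variation of the DMSO-S30 libraries was 0.777%, against 3.65% in dTAG-S30, and with 3 values it is a loose measure of the spread. The log2 fold change was 4.01 with a standard error (SE) of 0.0738 (edgeR adjusted p = 1.17e-24), which placed CSRNP1 at rank 28 of 13093 genes by size of rise.

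IER2 was at 35.5, 33.7 and 34.8 CPM in DMSO-S0 and at 264.8, 232.7 and 257.5 CPM in DMSO-S30. The lowest library with serum was thus well above the highest without, and the log2 fold change was 2.87 (SE 0.0740, edgeR adjusted p = 2.32e-21, rank 54). IER3 was the most abundant of the 5 before serum, at 151.4, 146.7 and 137.5 CPM, and rose to 440.4, 410.7 and 458.1 CPM. Its log2 fold change was 1.61 (SE 0.0671, edgeR adjusted p = 1.17e-16, rank 142).

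The paralogs IER5 and IER5L responded little. IER5L was at 49.2, 45.2 and 42.4 CPM in DMSO-S0 and 72.5, 61.5 and 76.3 CPM in DMSO-S30, a log2 fold change of 0.65 (SE 0.0857, edgeR adjusted p = 1.71e-06, rank 514). IER5 was at 34.3, 34.1 and 30.0 CPM in DMSO-S0 and 39.8, 36.6 and 37.5 CPM in DMSO-S30, a log2 fold change of 0.23 (SE 0.0793, edgeR adjusted p = 0.0361, rank 1496). The call for IER5 was lost without DMSO-S0 replicate 3 (log2 0.20, edgeR adjusted p = 0.0972) and without DMSO-S30 replicate 3 (log2 0.24, edgeR adjusted p = 0.0675). The median log2 fold change of all genes tested was -0.07, so the scaling sets part of the level from which such a small change is read.

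**Figure D3:**
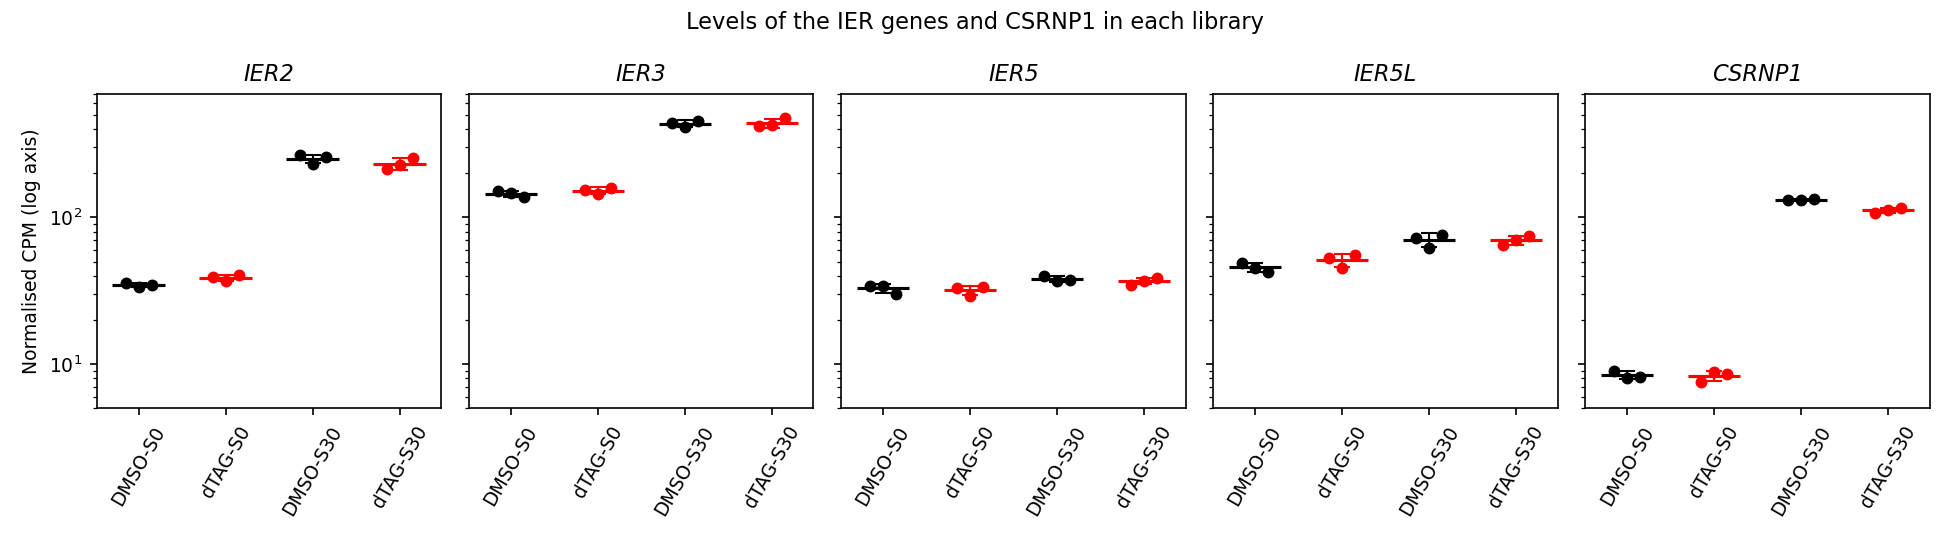
Normalised CPM (log axis) of each gene in each of the 12 libraries, DMSO in black and dTAG in red, with the group mean as a horizontal line and the SD of 3 libraries as an error bar. Serum separates the groups of CSRNP1 the most, with 7.57 to 9.01 CPM at S0 and 107 to 133.6 CPM at S30, and those of IER5 lie between 29.1 and 39.8 CPM throughout.

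In dTAG-treated cells the same comparison, dTAG-S30 against dTAG-S0, gave the response to serum after KAP1 depletion. Of the 5 members 4 were called higher, where 9.04% of the genes tested were, and the order of the rises was the same. CSRNP1 went from 7.57, 8.79 and 8.49 CPM to 107, 113 and 115 CPM, a log2 fold change of 3.73 (SE 0.0712, edgeR adjusted p = 3.16e-24). IER2 went from 39.0, 37.0 and 40.5 CPM to 213, 229 and 254 CPM, a log2 fold change of 2.57 (SE 0.0706, edgeR adjusted p = 1.20e-20). In both genes all 3 libraries with serum were again far above those without.

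IER3 went from 154.8, 143.9 and 159.0 CPM to 418, 424 and 477 CPM, a log2 fold change of 1.51 (SE 0.0649, edgeR adjusted p = 2.75e-16). IER5L was at 52.9, 45.3 and 55.4 CPM without serum and 65.1, 69.6 and 74.8 CPM with serum, a log2 fold change of 0.43 (SE 0.0822, edgeR adjusted p = 0.000335). For IER5 the values were 32.9, 29.1 and 33.5 CPM without serum and 34.8, 36.9 and 38.6 CPM with serum. The libraries of IER5 did not overlap, as in 12.6% of the genes tested in this direction, but its log2 fold change of 0.20 (95% interval 0.04 to 0.36, edgeR adjusted p = 0.0631) was not past the threshold. It passed in 7 of 12 fits that each left out 1 library (log2 0.13 to 0.26, the lowest without dTAG-S0 replicate 2) and in 6 of 9 fits with other processing (0.20 to 0.26).

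The dTAG-S0 and DMSO-S0 libraries were compared to ask whether the members' starting level moves with dTAG treatment. No group held untagged cells given dTAG, so an effect of KAP1 depletion cannot be told apart from another effect of the compound. None of the 5 was called by edgeR, where 1.28% of the genes tested were, and 2 of 5 had an unadjusted p under 0.05, against 1509 of 13093 genes. IER2 was higher in all 3 dTAG libraries than in all 3 DMSO libraries (37.0 to 40.5 against 33.7 to 35.5 CPM), as were 8.5% of the genes tested, with a log2 fold change of 0.17 (95% interval 0.02 to 0.33, edgeR adjusted p = 0.357). IER5L had a log2 difference of 0.19 (0.01 to 0.36, edgeR adjusted p = 0.386), with overlapping libraries. IER3 (0.09, -0.05 to 0.22), IER5 (-0.03, -0.19 to 0.13) and CSRNP1 (0.00, -0.18 to 0.19) overlapped as well. DESeq2 and the likelihood ratio test also called 0 of 5. The interval for CSRNP1 leaves room for a change of up to 1.14-fold in its starting level.

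With serum present (dTAG-S30 against DMSO-S30), 1 of the 5 members changed, where 0.626% of the genes tested were called lower and 1.21% in either direction. CSRNP1 fell, from 131.5, 132.2 and 133.6 CPM in DMSO-S30 to 107, 113 and 115 CPM in dTAG-S30, and the groups did not overlap, as in 8.1% of the genes tested in this direction. Its log2 fold change was -0.28 (SE 0.0585, 95% interval -0.40 to -0.16, edgeR adjusted p = 0.0102), or -17.6%. Of 286 IEGs with a rise of at least 2-fold, 68 had a lower log2 fold change with dTAG than CSRNP1. These IEGs were picked by their rise in the same DMSO-S30 libraries, which by itself favours lower values with dTAG. Over the alternatives the log2 fold change of CSRNP1 was -0.30 to -0.25. Its call was lost without DMSO-S30 replicate 3 (-0.28, edgeR adjusted p = 0.0585), without dTAG-S30 replicate 1 (-0.26, edgeR adjusted p = 0.05005) and with library sizes taken from the ERCC total (-0.25, edgeR adjusted p = 0.273).

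The other 4 members did not pass the threshold at S30, and their libraries overlapped. IER2 had a log2 fold change of -0.13 (95% interval -0.27 to 0.01, edgeR adjusted p = 0.508), with 1 of the 3 dTAG libraries, at 254 CPM, within the DMSO range of 232.7 to 264.8 CPM. Single libraries moved this value, to -0.05 without dTAG-S30 replicate 1 and to -0.21 without DMSO-S30 replicate 2. IER3 (-0.01, -0.14 to 0.12), IER5 (-0.06, -0.22 to 0.10) and IER5L (-0.03, -0.20 to 0.14) gave intervals that include 0. For IER3 the interval runs from 0.906-fold to 1.09-fold.

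**Figure D4:**
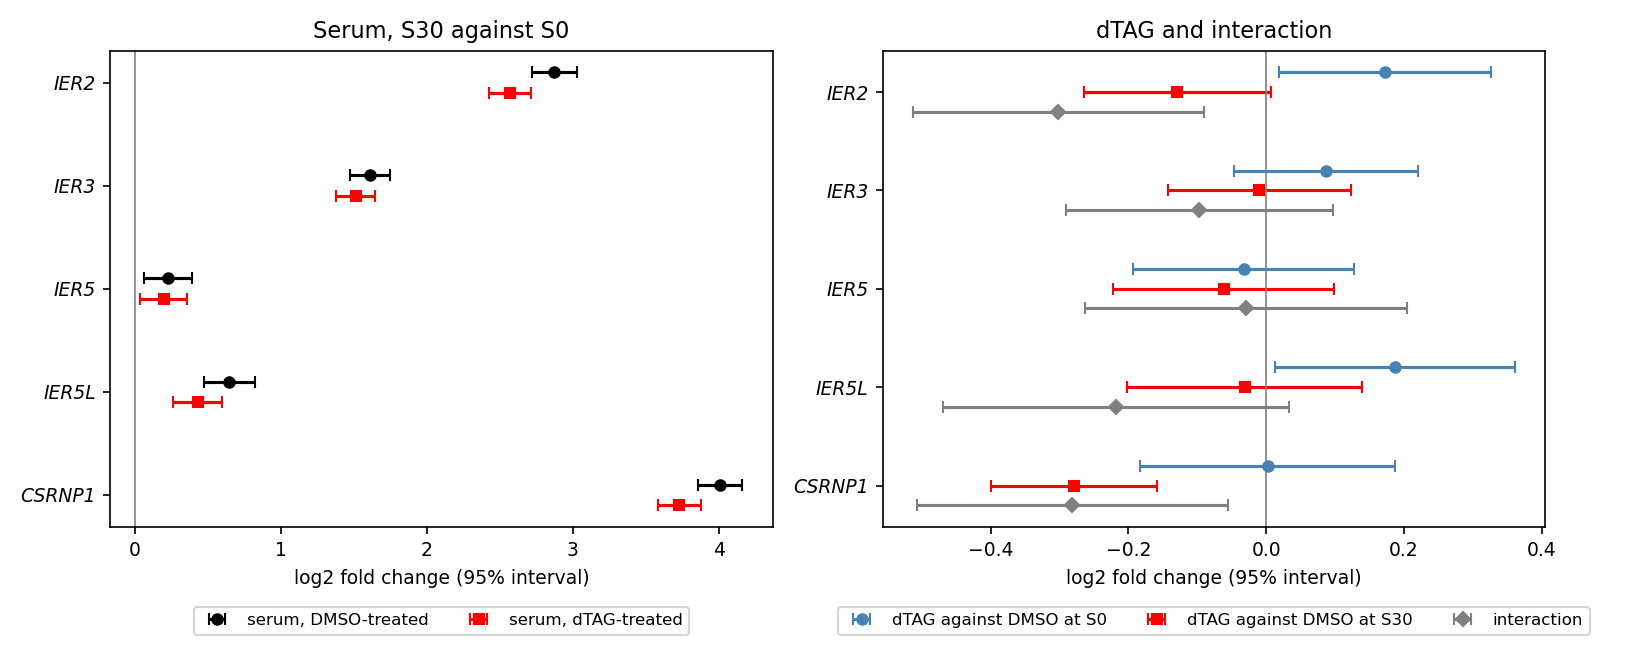
Log2 fold changes of each gene with their 95% intervals, for serum in DMSO-treated (black) and dTAG-treated cells (red) on the left, and for dTAG at S0, dTAG at S30 and the interaction on the right. The interval for dTAG at S30 lies below 0 for CSRNP1 (-0.40 to -0.16) and includes 0 for the other 4 genes.

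The interaction, the serum effect in dTAG-treated cells minus that in DMSO-treated cells, tested whether the response itself differed. It was below 0 for all 5 members, with log2 values of -0.30 for IER2 (95% interval -0.51 to -0.09), -0.28 for CSRNP1 (-0.51 to -0.06), -0.22 for IER5L (-0.47 to 0.03), -0.10 for IER3 (-0.29 to 0.10) and -0.03 for IER5 (-0.26 to 0.20). It was below 0 in 243 of the 286 IEGs too (median -0.21, against 0.00 over all genes tested). Of the 286, 100 were lower than IER2, 110 lower than CSRNP1 and 206 lower than IER3. These IEGs were picked by their rise in the same DMSO libraries, which by itself favours interactions below 0. The all-gene median has no such selection, so the 2 medians are not like for like. The value for IER5L was -0.36 without DMSO-S30 replicate 2. None passed the threshold (edgeR adjusted p = 0.9998 for each), which 0.0382% of the genes tested did. Unadjusted p-values were 0.00684 for IER2 and 0.0165 for CSRNP1, and 405 of 13093 genes were under 0.05. Neither DESeq2 nor the likelihood ratio test called any of the 5.

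IER2 and CSRNP1 had interactions of similar size, with different levels behind them. In CSRNP1 the level at S0 differed by less than the spread between libraries (8.43 ± 0.510 CPM in DMSO-S0 and 8.28 ± 0.636 CPM in dTAG-S0, SD, n = 3) and the level at S30 was lower with dTAG. In IER2 the level at S0 was 34.7 ± 0.905 CPM (SD, n = 3) with DMSO and 38.8 ± 1.73 CPM (SD, n = 3) with dTAG, and the level at S30 252 ± 16.8 CPM (SD, n = 3) and 232 ± 20.5 CPM (SD, n = 3), where neither difference passed the threshold by itself. On the CPM scale serum added 124 ± 0.663 CPM (SE) to CSRNP1 in DMSO-treated and 103 ± 2.38 CPM (SE) in dTAG-treated cells, 83.4% as much. Each SE on this scale comes from the SDs of 3 libraries a group and not from the model, so it can fall below the counting error. Differences between these amounts were not tested. The amounts for IER2 were 217 ± 9.72 and 193 ± 11.9 CPM (SE), or 89.1%, and those for IER3 291 ± 14.4 and 287 ± 19.3 CPM (SE), or 98.6%. For IER5L the added amount was 24.5 ± 4.85 and 18.7 ± 4.15 CPM (SE), or 76.2%, the lowest share of the 5, and for IER5 5.18 ± 1.71 and 4.92 ± 1.77 CPM (SE), or 95.02%.

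**Figure D5:**
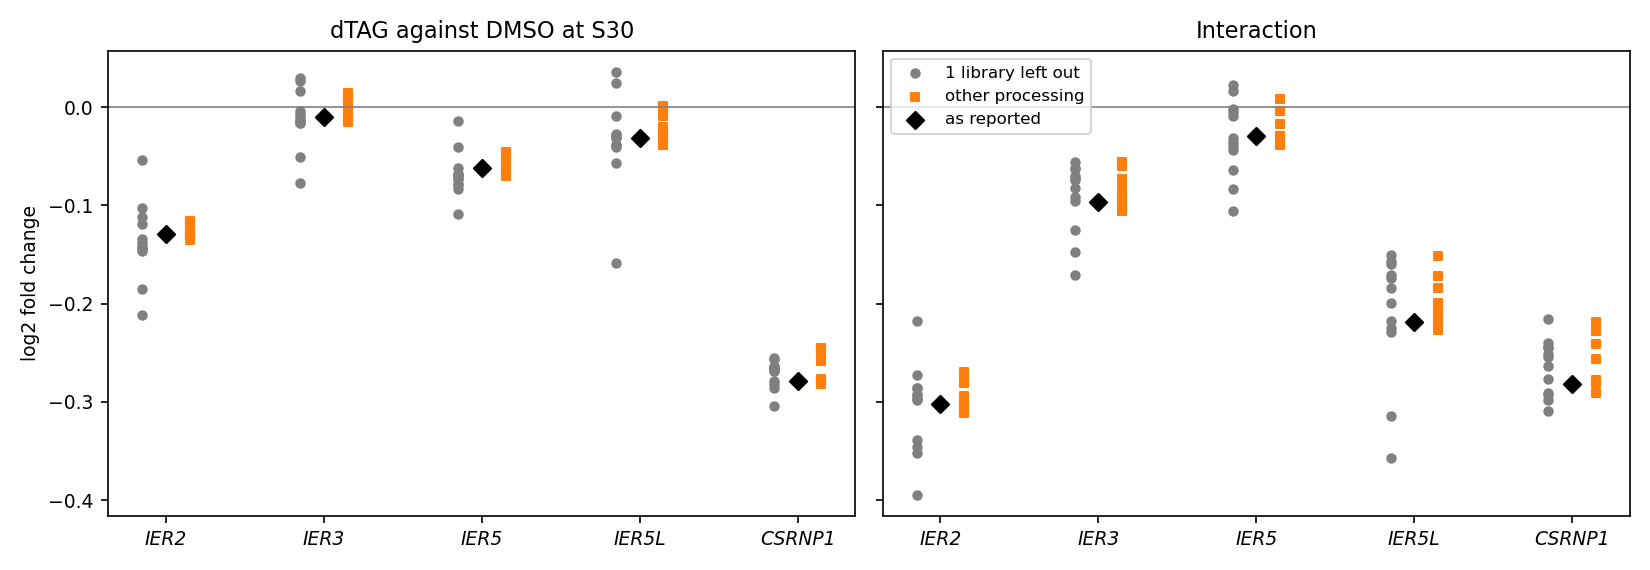
Log2 fold change of each gene for dTAG against DMSO at S30 (left) and for the interaction (right), as reported (diamonds), in 12 fits that each left out 1 library (grey) and under other processing (orange). For CSRNP1 all values are below 0 in both panels, and for IER3 and IER5L they lie on both sides of 0 at S30.

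The 4 groups were ordered by level for each member. For IER2, IER3, IER5L and CSRNP1 every S30 group lay above every S0 group, and each of these comparisons was called. Of the 5 members, 4 were called higher in dTAG-S30 than in DMSO-S0 and 5 higher in DMSO-S30 than in dTAG-S0, where 12.5% and 9.33% of the genes tested were. Within S0 and within S30 the neighbouring groups were not distinguished, except for CSRNP1 at S30. For IER5 the order was dTAG-S0, DMSO-S0, dTAG-S30 and DMSO-S30, and the middle neighbours, DMSO-S0 (32.8 ± 2.45 CPM, SD, n = 3) and dTAG-S30 (36.8 ± 1.87 CPM, SD, n = 3), were not distinguished either (log2 0.16, edgeR adjusted p = 0.0936). Per kb of counted gene, introns included, the level in DMSO-S0 was 107 CPM for IER3, 16.8 for IER5L, 7.83 for IER5, 7.71 for IER2 and 0.663 for CSRNP1. In DMSO-S30 it was 322 CPM per kb for IER3, 56.0 for IER2, 25.8 for IER5L, 10.4 for CSRNP1 and 9.07 for IER5. On this scale CSRNP1 was the lowest of the 5 before serum and IER5 the lowest after it.

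Likeness to other genes was measured as the root mean square distance between log2 CPM profiles over the 12 libraries, each centred on its own mean. Each member was compared with all other genes tested. The nearest profiles to IER2 were those of FOSL2 and SRF (distances 0.0768 and 0.0968), and those nearest to CSRNP1 were DUSP5 and DUSP1 (0.158 and 0.232), which encode MAP kinase phosphatases. IER3 was nearest to TPM4 and ZYX (0.0819 and 0.103), genes of the actin cytoskeleton. IER5 was nearest to PPP1R9B and FBRS (0.0449 and 0.0521), and IER5L to DDIT4 and PAF1 (0.0514 and 0.0583). Between members the smallest distance was that of IER5 and IER5L, 0.189, and the largest that of IER5 and CSRNP1, 1.82. All profiles share the same libraries and their split by serum.

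The nearest tested genes on the chromosome showed little of the members' rise in DMSO-treated cells. STX10, which starts 31 bp from IER2 on the other strand, had a log2 fold change of 0.22 with serum (edgeR adjusted p = 0.0203) against 2.87 for IER2. FLOT1, 465 bp from IER3, had one of 0.02 (edgeR adjusted p = 0.859), and TTC21A, 2951 bp from CSRNP1, one of 0.11 (edgeR adjusted p = 0.574). The other 7 neighbours lay 26605 bp or more away and none was called in this comparison.

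Of 16 relatives and partners of the members, 13 were tested. With serum in DMSO-treated cells 2 of the 13 rose and 1 fell, where 9.15% of the genes tested were called higher and 17% lower. The median log2 fold change of the 13 was -0.03 against -0.07 over all genes tested. MCL1, the survival protein that IER3 is known to bind, went from 153 ± 7.19 to 310 ± 3.79 CPM (SD, n = 3; log2 1.02, edgeR adjusted p = 6.46e-13). HSF1 rose by 0.32 on the log2 scale (edgeR adjusted p = 0.000664) and PPP2R1B, a scaffold subunit of PP2A, fell by 0.23 (edgeR adjusted p = 0.0218). HSF1 and PPP2R1B each overlap a gene on the other strand in the table. The 3 untested genes, named after their values were seen, were CSRNP3 (at most 3 counts), IER3IP1 (at most 1) and PPP2CA (at most 4), of which IER3IP1 and PPP2CA each overlap another gene of the table on their own strand. MCL1, HSF1 and PPP2R1B were also called in dTAG-treated cells, where 24.3% of the genes tested were called in either direction. With dTAG at S0 or S30, 0 of 13 were called, against 1.28% and 1.21% of the genes tested. TMM scaling, ERCC library sizes and DESeq2 each called 2 of the list in place of 3, in DMSO-treated and in dTAG-treated cells.

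Of 10 factors of serum-induced transcription, 5 were called higher with serum in DMSO-treated cells and 0 lower, where 9.15% and 17% of the genes tested were. The median log2 fold change of the 10 was 0.09, against -0.07 over all genes tested. SRF, which encodes serum response factor, went from 31.8 ± 2.49 to 211 ± 16.8 CPM (SD, n = 3; log2 2.73, edgeR adjusted p = 1.11e-20), and RELA (0.26), ELK1 (0.20) and NFKB1 (0.19) moved by far less. In dTAG-treated cells SRF (log2 2.53) and RELA (0.30) were called, where 9.04% of the genes tested were called higher. The count moved with the settings. In DMSO-treated cells it was, for example, 2 with ERCC library sizes and 3 without DMSO-S0 replicate 2 or DMSO-S30 replicate 1 or 2. In dTAG-treated cells it was 5 under TMM scaling and with DESeq2, and 4 without a count filter or without DMSO-S0 replicate 3. With dTAG at S0, NFKB1, an NF-kappaB subunit, was higher (log2 0.30, edgeR adjusted p = 0.0166), where 1.28% of the genes tested were called in either direction. This call was lost with ERCC library sizes and without dTAG-S0 replicate 3, each of which called 0 of the 10. With dTAG at S30, 0 of the 10 were called, against 1.21% of the genes tested, with NFKB1 at log2 0.24 (edgeR adjusted p = 0.0841). There 2 of the 10 were called without a RUV factor, with the likelihood ratio test, with DESeq2, without a count filter and with only the libraries compared, and 0 to 2 when single libraries were left out (2 without DMSO-S0 replicate 1, 2 or 3, and 1 without DMSO-S30 replicate 1, dTAG-S0 replicate 1 or 3, or dTAG-S30 replicate 1). Of 8 chaperone genes that HSF1 drives, DNAJB1 (log2 0.39) and HSPB1 (0.71) rose with serum in DMSO-treated cells and again in dTAG-treated cells (0.25 and 0.56). In these 2 comparisons 9.15% and 9.04% of the genes tested were called higher. With dTAG at S0 none of the 8 was called, where 1.28% of the genes tested were. The median log2 fold change of the 8 was 0.21 against -0.01 over all genes tested. Under 8 of the 9 alternatives other than leaving out a library, 1 to 3 of the 8 were called.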

How the data were processed

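Total RNA was depleted of ribosomal RNA and sequenced with ERCC spike-ins. Per the study's methods, the authors trimmed the reads with Trim Galore 0.6.4, mapped them to hg38 with STAR and counted them over whole protein-coding genes, introns included, with featureCounts (Subread 1.6.3). The deposited values are raw counts, so pre-mRNA and mature mRNA are not separated, and unused columns were 0. Here ERCC rows were left out of library sizes. Counts were scaled by upper quartile, 1 factor of unwanted variation was estimated from 69 of 92 ERCC transcripts (RUVg, coded for this work), and edgeR 4.0.16 (R 4.3.3) quasi-likelihood tests were fitted to all 12 libraries for genes that reached 10 counts in 6 or more libraries. The study used edgeR's likelihood ratio test, which was run as an alternative, and how many RUV factors it used is not given in the sources used here. P-values were adjusted by Benjamini-Hochberg over 13093 genes, and intervals are 95%. Normalised CPM values carry the scaling but not the RUV factor. Counting error is covered by the model, and the lowest member count was 161.

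The 5 members, the related lists and the promoter motifs were chosen with earlier results of these data known. Besides the members, the genes named were TRIM28, the 2 nearest profiles and the adjacent tested genes of each member, and up to 4 called genes per list, largest change first. Samples were grouped by their labels. The label of the libraries without serum, Serum_0_30, was read as no serum, since the table's columns call them serum starved. Replicates were separate libraries, since chi-square per degree of freedom between pairs was 3.02 to 9.80. The alternatives were TMM scaling, ERCC library sizes, no RUV factor, 2 RUV factors, the likelihood ratio test, DESeq2 1.42.0, no count filter, only the libraries compared, a replicate block, and each library left out in turn. Only the fitting step was tested on simulated counts, which held no serum effect and no unwanted variation.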

Additional observations from a re-analysis of the deposited data

How the results depend on the processing

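Direction and side of the threshold were kept in 477 of 520 member values, 5 lost the threshold, 13 gained it and 25 turned sign. The number of members called with dTAG at S30 was 0 with ERCC library sizes and 0 to 1 when single libraries were left out, against 1 as reported. The counts without single libraries were 4 to 5 for serum in DMSO-treated cells, 4 to 5 for serum in dTAG-treated cells, 0 with dTAG at S0 and 0 for the interaction. The sign turned for the following log2 values. For dTAG at S30, IER3 was 0.0121 with ERCC library sizes, 0.0112 without a RUV factor, 0.0061 with DESeq2, 0.00022 without a count filter and 0.0149 with only the libraries compared, and IER5L was 0.0012 with only the libraries compared. For dTAG at S0, CSRNP1 was -0.0190 without a RUV factor, -0.0107 with DESeq2 and -0.0401 without a filter, and IER5 was 0.0444 with only the libraries compared. The interaction of IER5 was 0.0086 without a filter. Without single libraries, log2 values ran from -0.0772 to 0.0299 for IER3 and -0.158 to 0.0359 for IER5L with dTAG at S30, from -0.0503 to 0.0346 for CSRNP1 and -0.0846 to 0.0370 for IER5 with dTAG at S0, and from -0.105 to 0.0228 for the interaction of IER5. The cause was not tested. TMM scaling moved the share of higher calls among all genes for serum in DMSO-treated cells from 35.0% (1198 of 3420 calls) to 61.5% (1690 of 2749), and ERCC library sizes gave 1766 calls, 1175 of them higher.

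The replicate numbers did not pair the libraries: of 18 same-numbered pairs 1 correlated above 0.1 (-0.153 to 0.139), and 5 of 12 libraries correlated best with their own number. With the replicate block the members called numbered 5, 4, 0, 1 and 0 for serum in DMSO-treated cells, serum in dTAG-treated cells, dTAG at S0, dTAG at S30 and the interaction, the same counts as without it. Whole-gene counts and 3 libraries a group limit what small changes such as that of IER5 can show.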
